A study of Mus musculus with 4 samples.

Results

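Immediate early genes were examined in neonatal mouse spleen after maternal exposure to carbon black nanoparticles. The set held 10 genes named by symbol, 10 of the 20284 genes that could be matched by RefSeq accession on the array: the transcription factor genes Fos, Fosb, Jun, Junb, Egr1, Egr2 and Nr4a1, the feedback regulators Dusp1 and Zfp36, and Ier2. Each had 1 probe, and each was well above background (the scanner software's flag for a spot brighter than its surroundings) on all 4 arrays.

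Immediate early genes are transcribed soon after a cell receives a signal, without new protein synthesis, because the factors that switch them on are already in place. Kinase cascades such as the MAP kinases phosphorylate serum response factor partners at CArG boxes and CREB at cyclic AMP response elements in their promoters. Their transcripts are short-lived, so their level reflects recent signalling. In spleen they are best known from lymphocytes after antigen receptor stimulation and from macrophages after microbial stimulation.

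The spleens came from 5-day-old ICR mice, an outbred stock. Mothers of the exposed offspring were given carbon black nanoparticles (CB-NP), ultrafine particles of nearly pure carbon, into the nose at 95 microg/kg on each of gestational days 5 and 9, and mothers of the controls were given distilled water at 1 mL/kg on the same schedule. RNA of the animals of a group was combined before labelling, which left a control pool and a CB-NP pool of each sex, 4 in all, each hybridised to 1 single-colour Agilent array. The number of animals or litters in a pool was not given in the sources used here, and no pool was repeated, so differences within a sex had no replicate spread and no test.

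Of the 10 members, 8 (all but Egr1 and Ier2) had a promoter in the RefSeq table (build GRCm38.p6). The 250 bases before the transcription start were searched on both strands for 5 motifs. Windows of 5 members are shown, since these carried the largest differences between pools or the full motifs. A CArG box, the site of serum response factor, was found in Egr2 and Zfp36, 2 of 8 members, against 1.62% of 27025 genes. A complete cyclic AMP response element (TGACGTCA) was found in Dusp1 alone, against 1.77% of genes. The shorter TGACG, which overlaps the complete element, was found in 6 of 8 members (Fos, Fosb, Junb, Egr2, Dusp1 and Nr4a1), against 19.8%. The AP-1 site (TGACTCA or TGAGTCA) was found in 0 of 8 members (5.16% of genes), and TATAAA in Fos (14.3% of genes). The members lie on chromosomes 4 (Jun), 7 (Fosb and Zfp36), 8 (Junb and Ier2), 10 (Egr2), 12 (Fos), 15 (Nr4a1), 17 (Dusp1) and 18 (Egr1). The windows are Fos at chr12:85473640-85473889 (plus strand), Fosb at chr7:19310046-19310295 (minus strand), Egr2 at chr10:67537619-67537868 (plus strand), Zfp36 at chr7:28379229-28379478 (minus strand) and Dusp1 at chr17:26508473-26508722 (minus strand). Egr2 had 5 annotated starts, and the window shown is that of the third. Each is written 5′ to 3′ on the gene's strand, with CArG boxes and complete or short cyclic AMP elements in capitals.
Fos: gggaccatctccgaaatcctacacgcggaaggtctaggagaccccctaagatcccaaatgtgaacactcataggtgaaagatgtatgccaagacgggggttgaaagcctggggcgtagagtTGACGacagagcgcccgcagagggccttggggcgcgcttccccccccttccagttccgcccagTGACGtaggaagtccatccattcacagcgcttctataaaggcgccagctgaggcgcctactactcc
Fosb: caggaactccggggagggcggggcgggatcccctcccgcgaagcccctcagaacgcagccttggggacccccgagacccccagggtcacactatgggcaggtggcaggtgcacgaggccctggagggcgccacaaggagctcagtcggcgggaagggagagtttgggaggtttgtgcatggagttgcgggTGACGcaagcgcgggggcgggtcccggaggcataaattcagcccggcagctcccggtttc
Egr2: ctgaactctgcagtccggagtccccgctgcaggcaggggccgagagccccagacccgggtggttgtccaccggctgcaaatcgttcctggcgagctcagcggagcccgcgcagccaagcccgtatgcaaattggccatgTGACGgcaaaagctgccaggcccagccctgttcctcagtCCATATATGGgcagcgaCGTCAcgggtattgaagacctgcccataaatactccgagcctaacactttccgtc
Zfp36: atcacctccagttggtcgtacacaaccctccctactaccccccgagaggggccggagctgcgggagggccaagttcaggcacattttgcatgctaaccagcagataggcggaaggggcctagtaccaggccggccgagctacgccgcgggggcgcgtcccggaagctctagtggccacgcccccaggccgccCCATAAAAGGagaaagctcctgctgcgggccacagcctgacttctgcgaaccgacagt
Dusp1: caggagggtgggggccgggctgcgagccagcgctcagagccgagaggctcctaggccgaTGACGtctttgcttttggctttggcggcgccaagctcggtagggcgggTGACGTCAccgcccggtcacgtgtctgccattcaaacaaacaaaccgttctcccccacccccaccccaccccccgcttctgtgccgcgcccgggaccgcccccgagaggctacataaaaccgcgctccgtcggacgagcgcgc
The Egr2 box reads CCATATATGG and begins 72 bases before the start, and the Zfp36 box reads CCATAAAAGG and begins 58 bases before it. The matches are descriptions of the letters and were not tested for binding. Sequence farther upstream was not searched, so a member without a match in its window may still hold the motif there.

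On each array 57.3% to 59.0% of 59305 non-control spots passed the background flag, and no spot was saturated. The spleen markers Tlx1, Nkx2-5, Spic, Vcam1, Cd5l, Slc40a1 and Hmox1 passed the background flag on all 4 arrays, whereas the liver macrophage marker Clec4f did so on none. Summed levels of 14 acinar pancreas genes, in units of each array's 75th percentile, were 25.6 and 18.7 in the male and female controls and 0.657 and 0.787 in the CB-NP pools. All 7 of them that could be compared in both sexes were at least 2-fold lower with CB-NP, and Cpb1 and Pnlip were not well above background anywhere. Summed levels of 8 eosinophil genes were 33.7 and 64.6 in the controls and 11.6 and 19.2 in the CB-NP pools, with 6 of 8 at least 2-fold lower in each sex. Those of 10 B cell genes were 59.6 and 56.0 in the controls and 101.7 and 93.4 in the CB-NP pools, with 10 of 10 above 0 in each sex. Those of 10 T cell genes were 26.0 and 26.1 in the controls and 26.3 and 35.1 in the CB-NP pools, with 6 of 10 above 0 in males and 10 of 10 in females. Those of 10 neutrophil genes were 1489 and 1551 in the controls and 1556 and 1364 in the CB-NP pools, with 8 of 10 above 0 in males and 1 of 10 in females. Those of 6 megakaryocyte genes were 105.6 and 96.1 in the controls and 127.2 and 95.8 in the CB-NP pools, with 6 of 6 above 0 in males and 2 of 6 in females. Macrophage genes, 8 in all, summed to 108.2 and 108.9 in the controls and 119.8 and 108.0 in the CB-NP pools. Of the 7 compared, 7 were above 0 in males and 4 in females. Erythroid genes were above 0 for 1 of 7 in males and 3 of 7 in females, and endothelial and stromal genes for 6 and 8 of 10. Among all genes, 45.2% in males and 43.3% in females were above 0, and 0.508% and 0.433% were at least 2-fold lower. The part of these cell types in the member differences below was not tested. In whole tissue, fewer cells of a type, less RNA per cell and a different amount of another tissue, such as pancreas, in a pool cannot be told apart.

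Levels below are the log2 processed signal minus the 75th percentile of the array, and a difference between arrays carries the scanner error, which covers the reading of the spots only. For bright genes the software set it as a fixed share of the signal, as 129 of 1290 units for Jun in the male control. Their differences therefore all carried 0.20. Repeated spots had a median coefficient of variation of 4.32% to 4.78% by array. For Fos the error was averaged over spots and not reduced for their number. All members differed by less than 2-fold between any 2 pools. The range over the 4 pools ran from 0.17 to 0.91 on the log2 scale, with a median of 0.47, and the median range of the 13933 genes well above background on all 4 arrays was 0.29. The widest were those of the dim genes Fosb (0.91), Fos (0.80), Zfp36 (0.72) and Egr2 (0.59), with mean signals of 17.0 to 57.5 units. Junb, also dim at 61.1 units, spanned 0.40. Member ranges were not compared with those of genes of like signal. No member reached a 2-fold difference in any of the 3 comparisons. Between the male pools 0.86% of all genes did so (0.352% higher with CB-NP and 0.508% lower), between the female pools 1.09% (0.661% higher and 0.433% lower), and between the controls 0.777% (0.254% higher in the female and 0.522% lower).

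**Figure D1:**
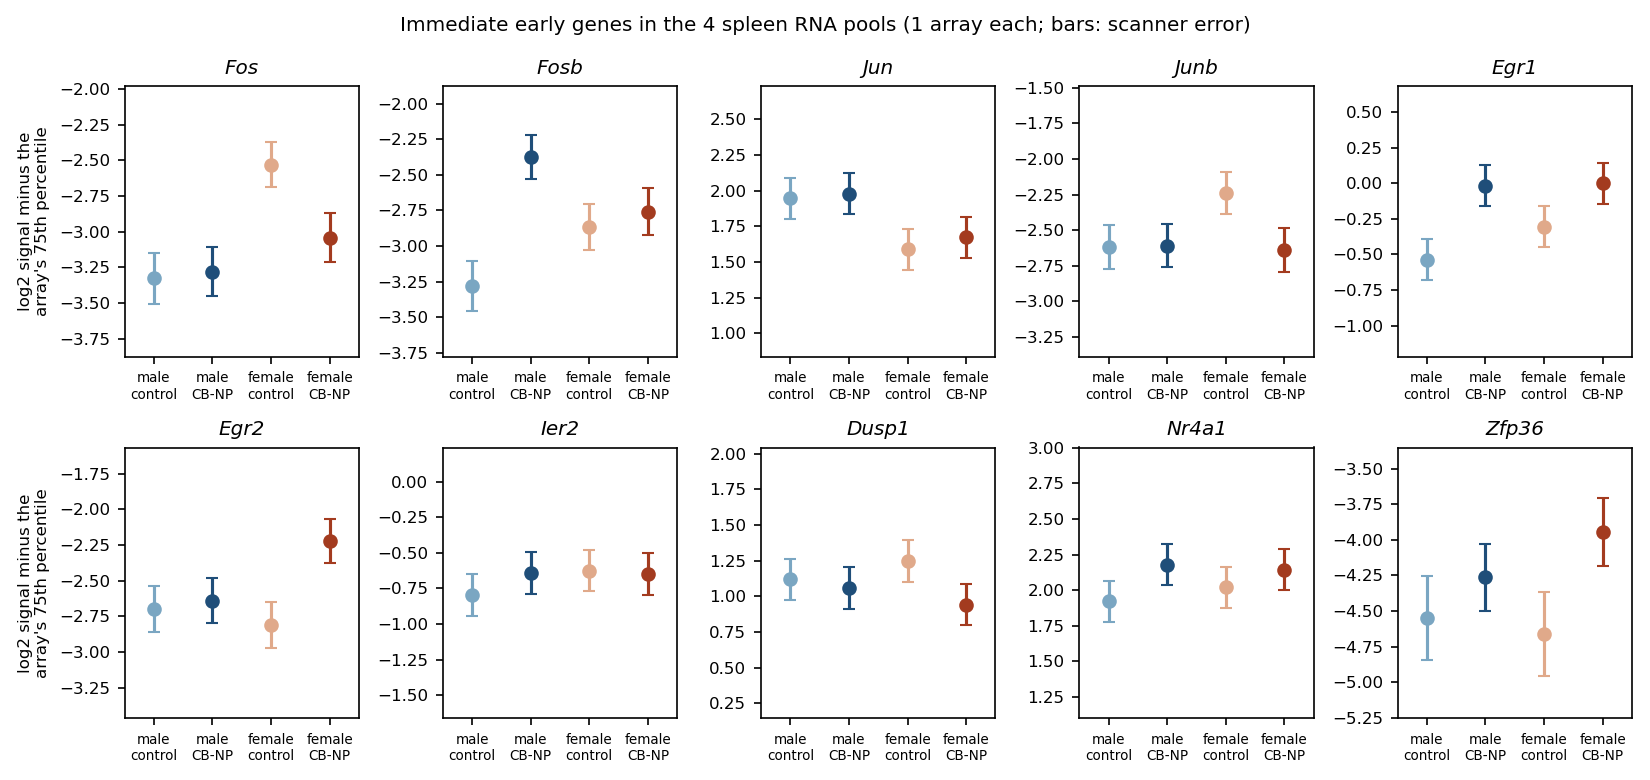
Log2 level (processed signal minus the array's 75th percentile) of each member in the 4 pools, with 1 point per array and bars for the scanner error; every panel spans the same height. Fos and Junb are highest in the female control pool, Fosb in the male CB-NP pool, and Egr2 and Zfp36 in the female CB-NP pool.

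Fos and Fosb encode the Fos family partners of the AP-1 dimer. The Fos level was -3.33 (control) and -3.28 (CB-NP) in males, and -2.53 (control) and -3.04 (CB-NP) in females. The female control pool thus stood above the other 3, and the next highest was the female CB-NP pool. In the female pair Fos differed by -0.51 with CB-NP (scanner error 0.23), in the male pair by 0.05 (scanner error 0.25), and between the controls by 0.80, higher in the female (scanner error 0.24, a fold of 1.74). Normexp background correction with an added offset of 50 units gave -0.10, -0.01 and 0.23 for the 3 values. Such an offset narrows the log2 differences of dim signals.

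The array carried 10 repeated spots of the Fos probe, which gave a technical spread for this gene. In the female control, 9 usable spots read 60.0 to 76.6 intensity units (mean 68.1 ± 6.21, SD) and a further spot flagged as an outlier read 105. In the male control, 10 spots read 28.2 to 38.3 units (33.5 ± 3.37, SD), and in the male CB-NP pool 9 usable spots read 29.9 to 39.5 units (35.1 ± 3.39, SD). The 10 spots of the female CB-NP pool read 32.7 to 44.5 units (38.7 ± 4.06, SD). After centring, the lowest usable female control spot was at -2.71 and the highest spot of any other pool at -2.83, so the female control did not overlap the rest, while the other 3 pools overlapped one another. Spots of an array share 1 labelled RNA pool, and this spread says nothing about animals.

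**Figure D2:**
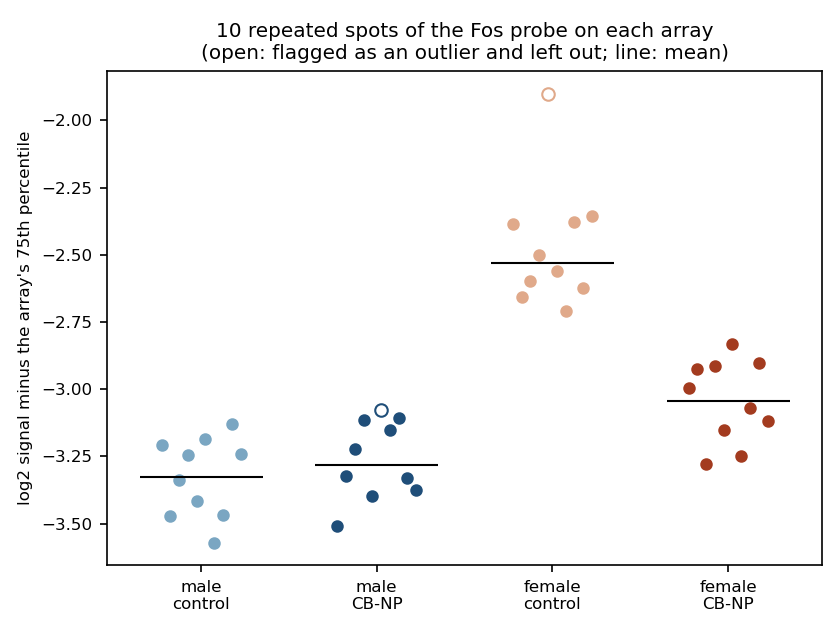
Log2 level of each of the 10 repeated Fos spots on the 4 arrays; open circles are spots flagged as outliers and left out, and lines are means of the rest. Usable female control spots lie between -2.71 and -2.36, above all spots of the other pools.

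Fosb had the widest range of the 10 members, 0.91. Its level was -3.28 (control) and -2.37 (CB-NP) in males, and -2.87 (control) and -2.76 (CB-NP) in females. The male difference with CB-NP was 0.91 (scanner error 0.24, a fold of 1.87), and the female difference was 0.11 (scanner error 0.23). Its signals were low, 34.5 and 65.6 units in the male control and CB-NP pools, and the male difference was 0.43 with normexp background correction.

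Jun and Junb encode the Jun family partners, of which Jun is a strong activator and JunB often a weaker one. The Jun level was 1.95 (control) and 1.98 (CB-NP) in males, and 1.59 (control) and 1.67 (CB-NP) in females. Both female pools therefore lay below both male pools, and CB-NP and control differed by 0.03 in males and 0.08 in females (scanner error 0.20 in each). The Junb level was -2.62, -2.61, -2.24 and -2.64 (control and CB-NP of males, then of females). Like Fos it was highest in the female control, by 0.38 over the male control (scanner error 0.21), and its female difference with CB-NP was -0.40 (scanner error 0.21), which normexp moved to -0.12.

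Egr1 and Egr2 encode zinc finger factors that follow MAP kinase signalling, and in lymphocytes they act downstream of the antigen receptors. Egr1 (chromosome 18) was at -0.54 (control) and -0.02 (CB-NP) in males, and -0.31 (control) and 0.00 (CB-NP) in females. Both CB-NP pools lay above both controls, with differences of 0.52 in males (scanner error 0.20, a fold of 1.43) and 0.31 in females (scanner error 0.20, a fold of 1.24). Egr2 was at -2.70, -2.64, -2.81 and -2.22 (control and CB-NP of males, then of females). The female CB-NP pool stood apart there, with a female difference of 0.59 (scanner error 0.22) beside 0.06 in males (scanner error 0.23). Of the other family members, Egr3 and Egr4 were not well above background on any array.

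Nr4a1 encodes Nur77, an orphan nuclear receptor widely used as a reporter of antigen receptor signalling. Its level was 1.92 (control) and 2.18 (CB-NP) in males, and 2.02 (control) and 2.14 (CB-NP) in females. The CB-NP pools lay above the controls by 0.26 in males and 0.12 in females (scanner error 0.20 in each), so only the male difference was larger than the scanner error. Nr4a2, a relative, gave 0.07 and -0.06 in males and females by its brighter probe and 0.86 and 0.16 by the dimmer one, so its probes disagreed.

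Dusp1 and Zfp36 close the response: the first encodes a phosphatase that switches MAP kinases off, and the second encodes tristetraprolin, which marks AU-rich transcripts for decay. Dusp1 was at 1.12 (control) and 1.06 (CB-NP) in males, and 1.25 (control) and 0.94 (CB-NP) in females. It was the only member lower with CB-NP in both sexes, by values of -0.06 in males and -0.31 in females (scanner error 0.20 in each). Zfp36 was at -4.55, -4.26, -4.66 and -3.94 (control and CB-NP of males, then of females). Its differences with CB-NP were 0.29 in males (scanner error 0.38) and 0.72 in females (scanner error 0.38, a fold of 1.64). Its signals, 14.3 to 20.6 units, were near the lowest signals called well above background on these arrays (8.57 to 10.2 units), and normexp gave 0.02 and 0.26.

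Ier2, a nuclear protein gene of the early growth response, varied least, with a range of 0.17. Its level was -0.80 (control) and -0.64 (CB-NP) in males, and -0.63 (control) and -0.65 (CB-NP) in females. All 3 differences for Ier2 were smaller than the scanner error of 0.20.

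Within males, the comparison asked which members differed after maternal exposure. Above 0 were 9 of 10 members, against 45.2% of the 14186 genes compared, with a member median of 0.11 beside -0.02 for all genes. That median was 0.04 with normexp and 0.17 with the authors' scaling. Past 2 times the scanner error were Fosb and Egr1, 2 of 10 members higher against 4.96% of all genes, and 0 of 10 lower against 3.09%. Fos, Jun and Junb, with values of 0.05, 0.03 and 0.01, were close to 0, and normexp turned Fos and Junb to -0.01 and -0.13.

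Within females, above 0 were 6 of 10 members, against 43.3% of the 14075 genes compared. The member median was 0.09 beside -0.04 for all genes, and it moved to -0.02 with median centring. Past 2 times the scanner error were Egr2, 1 of 10 members higher against 7.57% of all genes, and Fos, 1 of 10 members lower against 6.1%. Members spread further from 0 in females than in males, with a median absolute difference of 0.31 against 0.11 (0.19 and 0.14 for all genes). With normexp these were 0.13 and 0.10 (0.17 and 0.11 for all genes), so most of the contrast was lost. The signs of Fosb and Jun turned with median centring and that of Ier2 with the authors' scaling, all 3 being near 0.

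Male and female pools share no array. Higher with CB-NP in both sexes were Fosb, Jun, Egr1, Egr2, Nr4a1 and Zfp36, 6 of 10 members against 27.8% of 13933 genes, and for Fosb and Jun this did not hold with median centring. Lower in both was Dusp1, 1 of 10 against 39.4%, and opposite in sign were Fos, Junb and Ier2, 3 of 10 against 32.8%. With normexp Fos and Junb were lower in both sexes, at -0.01 and -0.13 in males and -0.10 and -0.12 in females, and with the authors' scaling Ier2 was higher in both, at 0.22 and 0.07. Both CB-NP pools lay above both control pools for Fosb, Egr1, Egr2, Nr4a1 and Zfp36, 5 of 10 members against 21.8% of genes, and below both for Dusp1, 1 of 10 against 32.7%. Fosb dropped out with median centring. The male control was the lowest of the 4 pools for 5 members (Fos, Fosb, Egr1, Ier2 and Nr4a1), against 20.9% of genes, and the highest for 0, against 24.6%.

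**Figure D3:**
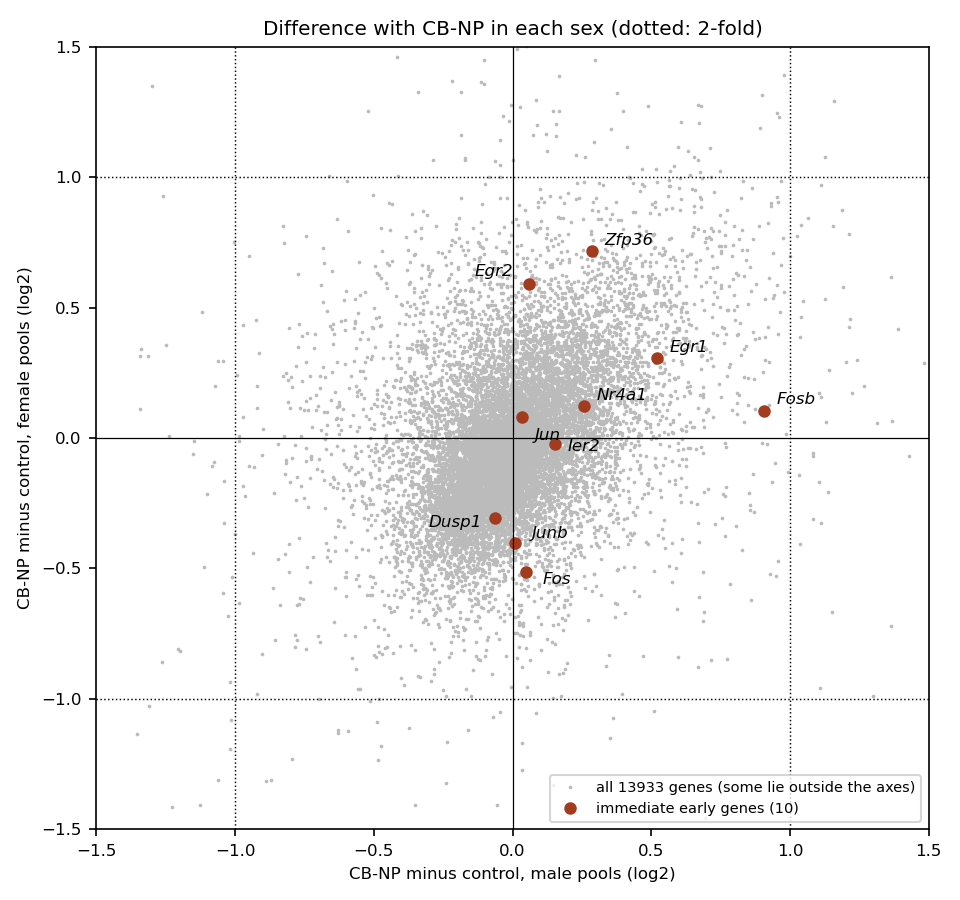
Log2 difference of CB-NP minus control in the male pools (horizontal) and the female pools (vertical) for 13933 genes (grey) and the 10 members (red); dotted lines mark 2-fold. All members lie inside the 2-fold square, Fosb far to the right at 0.91, Zfp36 and Egr2 at the top at 0.72 and 0.59, and Fos lowest at -0.51.

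Female and male controls were compared to show how far the members differed without exposure. Above 0 (higher in the female control) were 7 of 10 members, against 52.4% of 14164 genes, with a member median of 0.15 beside 0.01 (0.27 beside 0.13 with median centring). The male control array was subtracted here and in the male comparison with CB-NP (9 of 10 above 0), so these counts are not independent. Past 2 times the scanner error was Fos, 1 of 10 members higher against 3.03% of all genes, and 0 of 10 were lower against 4.54%. The 0.80 of Fos was exceeded among the treatment differences of the members by Fosb in males alone (0.91), and it shares the female control array with the female Fos difference of -0.51.

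A limma model with treatment and sex as terms tested the difference with CB-NP that both sexes share, over 14502 genes with 1 residual degree of freedom. No member passed an adjusted p of 0.05 (Benjamini-Hochberg over all genes tested), where limma called 0.0138% of genes higher and 0.069% lower. At an unadjusted p under 0.05 were Egr1 and Zfp36, 2 of 10 members against 13.8% of genes. The Egr1 difference was 0.41 (95% interval 0.10 to 0.73, limma p 0.0231, adjusted p 0.338), and it was higher in both sexes. Zfp36 followed at 0.50 (0.07 to 0.93, limma p 0.0336, adjusted p 0.352), also in both sexes. A p that misses the threshold does not show that a member was unchanged.

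The intervals of the other 8 members all included 0, and that of Fosb alone reached a 2-fold difference. Fosb was at 0.51 (-0.19 to 1.20), Egr2 at 0.32 (-0.18 to 0.82) and Nr4a1 at 0.19 (-0.09 to 0.47) in this model. Fos was at -0.23 (-0.75 to 0.29), Junb at -0.20 (-0.62 to 0.22) and Dusp1 at -0.18 (-0.51 to 0.14). Closest to 0 were Jun, 0.06 (-0.21 to 0.32), and Ier2, 0.07 (-0.23 to 0.36). For the sex term, no member passed in limma, where 0.0069% of genes were called higher in females and 0.0207% lower. Jun alone had an unadjusted p under 0.05, against 5.78% of genes, with a female minus male difference of -0.33 (-0.60 to -0.07, limma adjusted p 0.820), and Fos was at 0.52 (-0.00 to 1.04, limma adjusted p 0.859).

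**Figure D4:**
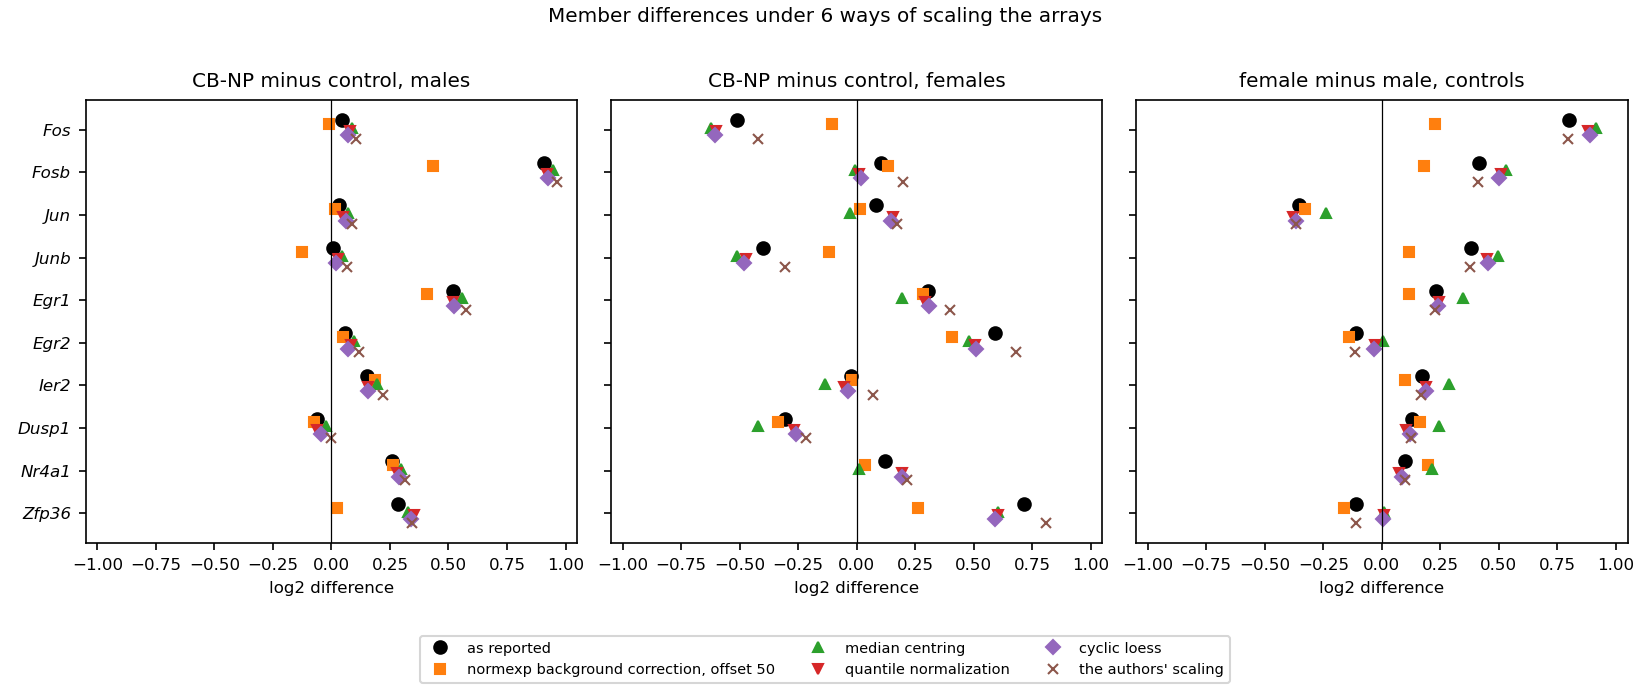
Log2 differences of the 10 members in the 3 comparisons under 6 ways of scaling the arrays; black circles are the values reported. With normexp the dim genes move towards 0, as Fosb from 0.91 to 0.43 in males and Fos from 0.80 to 0.23 between the controls, and Egr1 stays within 0.41 to 0.58 in males.

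Other genes of the same response and of the pathway above it were read from lists. None of these list genes passed in limma, out of 8 relatives of Fos and Jun, 3 of Egr and Nr4a, 11 of Dusp, Zfp36 and Ier, 26 other early response genes, 20 upstream genes of the SRF and MAP kinase route and 12 heat shock genes that were tested. At an unadjusted limma p under 0.05 were 0, 1, 5, 7, 1 and 0 of them in that order, against 13.8% of all genes. None reached a 2-fold difference within a sex where both arrays measured it (background 0.86% and 1.09%).

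Among relatives of the AP-1 factors, Jund, the constitutive member of the Jun family, was higher by 0.22 in males and 0.23 in females. Jdp2, an AP-1 repressor, gave 0.07 and 0.05. Atf3, a stress-induced partner named here after its values were seen, gave -0.12 in males and -0.85 in females, and its signal of 74.5 units in the female control was above the 33.5 of the female CB-NP pool and the 45.6 and 42.5 of the male control and CB-NP pools. Fosl1 stayed at background level on every array. Nab2, a corepressor that Egr factors induce and that restrains them, gave 0.39 and 0.24, and Nab1 0.19 and -0.14. Nab2 and Egr1 (0.52 and 0.31) were each higher with CB-NP in both sexes, as were 27.8% of 13933 genes. A link between Nab2 and Egr1 was not tested.

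In the group around Dusp1, Zfp36 and Ier2, the antiproliferative gene Btg1 gave 0.38 in males and 0.32 in females (-0.05 and 0.22 by its dimmer probe), and the Zfp36 relative Zfp36l2 0.01 and -0.11. Ier3, named after its values were seen, gave -0.45 and -0.75 with scanner errors of 0.20, and so ran opposite to most members. The list of other early response genes had 21 of 26 above 0 in males (median 0.18) and 11 of 25 in females (median -0.02). Of all genes, 45.2% and 43.3% were above 0. In it the survival gene Mcl1 gave 0.07 and -0.08 and Nfkbia, the NF-kappaB inhibitor gene, 0.29 and 0.26. Gadd45b, Klf2 and Nfkbiz, also chosen after their values were seen, gave 0.43 and 0.47, 0.53 and 0.37, and 0.45 and 0.44 in males and females. Other genes of that list were lower in both sexes, among them Ccn2, at -0.28 and -0.61, and Ccn1, at -0.20 and -0.25. Arc gave 0.81 in males (scanner error 0.31). In females it read 10.9 (control) and 22.3 (CB-NP) units, an observed 2.53-fold after centring (scanner error 0.41). The female control was not well above background. Dusp5, a phosphatase for ERK, was well above background in the controls only. Its CB-NP level was replaced by the lowest level called well above background on that array. It was then 1.99-fold lower with CB-NP in males and 1.48-fold lower in females. Its signals were low, 16.8 (control) and 8.4 (CB-NP) units in males and 18.0 and 5.8 units in females. On the log2 scale the folds were 0.99 and 0.56, beside scanner errors of 0.49 and 0.72, so the female one was within its error.

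**Figure D5:**
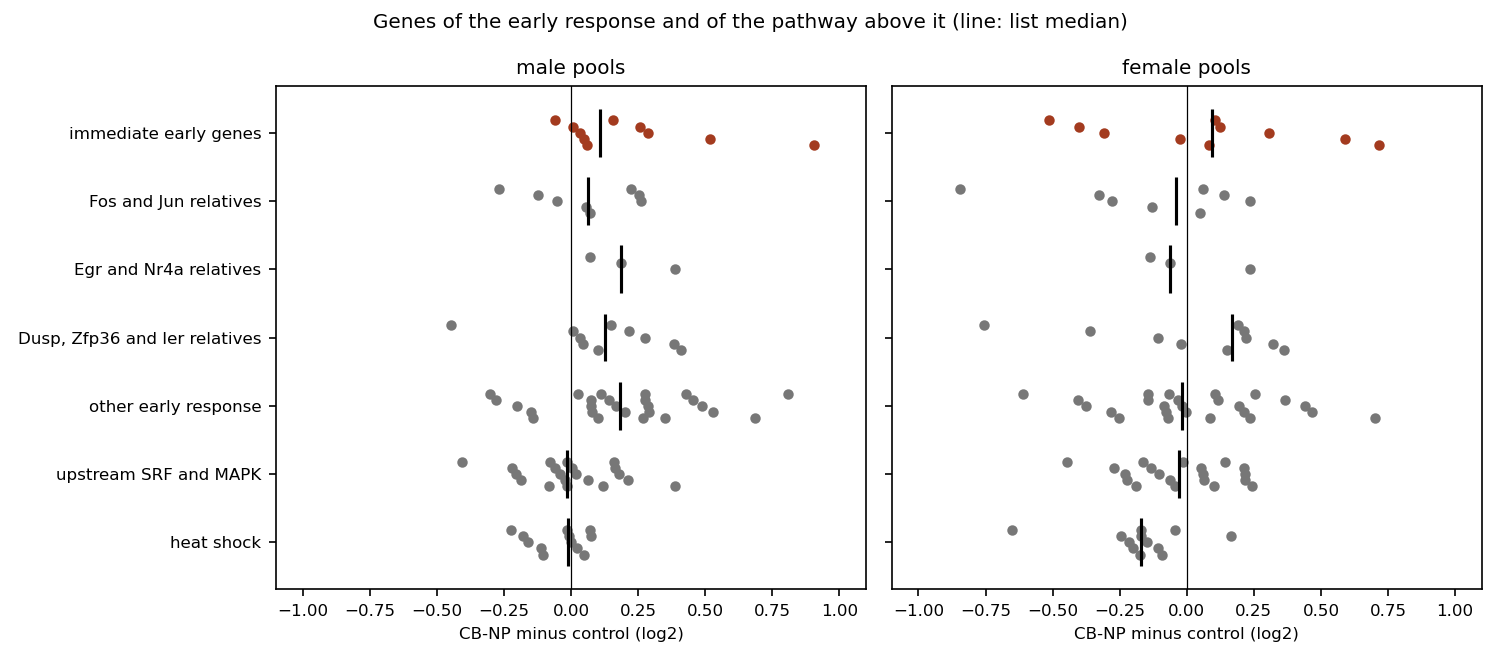
Log2 difference of CB-NP minus control in males (left) and females (right) for the members (red) and the genes of 6 related lists (grey); a point is a gene well above background on both arrays and lines are list medians. Early response genes other than the members center at 0.18 in males and -0.02 in females, and the upstream genes at -0.02 and -0.03.

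The upstream genes had medians of -0.02 in males and -0.03 in females and no value beyond -0.45 and 0.39. Rps6ka1, a kinase below ERK, gave -0.41 and -0.45. Elk1, a serum response factor partner, gave -0.04 and 0.22 by the brighter of its 2 probes, and the files do not settle which of them reads Elk1. Heat shock genes, which encode stress-induced and constitutive chaperones, had medians of -0.01 in males and -0.17 in females, with Hspa8 at -0.01 and -0.05 (its other probes gave -0.36 and -0.78 in females) and Hsp90ab1 at -0.11 and 0.16. Hspa1a, the inducible Hsp70 gene, was picked out after its values were seen: it read 19.6 (control) and 19.7 (CB-NP) units in males and 48.6 (control) and 25.0 (CB-NP) units in females, and so was highest in the female control, as were Fos and Junb. Its difference between the controls was 1.08 (scanner error 0.26), beside 0.80 for Fos. With CB-NP, 5 of 12 heat shock genes were above 0 in males and 1 of 12 in females, against 45.2% and 43.3% of all genes. Between the controls the heat shock list had a median of 0.03, with 7 of 12 genes above 0 against 52.4% of all genes. Hspa1a alone was at least 2-fold higher there, 1 of 12 against 0.254% of all genes. The female control was the highest pool for 33.3% of genes.

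The mean profile of the 10 members over the pools, each minus its own mean, was -0.15 (control) and 0.07 (CB-NP) in males, and 0.01 (control) and 0.08 (CB-NP) in females. The genes whose levels ran most like it were H2-Q6, Kcne4, Gpr183, Fat4 and Rftn1, each with a Pearson correlation of at least 0.999 over the 4 arrays. This was among 3187 genes with a range of at least 0.47, of which 2.76% had a correlation over 0.95. With 4 points from 1 slide such values are a description only.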

How the data were processed

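RNA of whole spleen was measured in 4 pools on 4 arrays. Per the file headers, the authors read single-colour (Cy3) arrays of design 028005, drawn on mouse build mm9, with Agilent Feature Extraction 10.10.1.1. The deposited processed signal is a linear intensity, from which the software had taken background and spatial trend array by array, without normalization between arrays. Other deposited values are the raw median intensities of spot and local background, the error of the processed signal, and other columns that are flags of 0 or 1. The authors' value table, also a deposited intensity, was the processed signal multiplied by a fixed factor for each array (3.10 and 3.18 for the male control and CB-NP pools, 2.64 and 3.49 for the female ones). Its column medians were 75.2, 76.1, 68.9 and 79.4, its direction and linear scale are settled by that match, and the target of the scaling is unknown. All 4 arrays lay on 1 slide with 1 scan time, so position and group cannot be told apart.

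From these, the log2 processed signal was centred on each array's 75th percentile over non-control spots. Repeated spots were averaged without flagged outliers, and a probe was well above background when over 0.5 of its spots were. Of 55681 probes, 26762 were matched by RefSeq accession (names from GRCm38.p6), and a gene was read by its brightest probe. Scanner errors were propagated from the deposited signal errors. limma 3.58.1 in R 4.3.3 fitted treatment and sex over genes that 2 or more arrays placed well above background and used a Benjamini-Hochberg adjusted threshold of 0.05. With 1 pool per sex and treatment, the 1 residual degree of freedom measures how far the sexes disagreed in their difference with CB-NP. limma moderated it with a prior of 2.42 degrees of freedom estimated over all genes. The p-values and intervals therefore hold no spread between like pools or between animals. The 4 arrays limit the precision. Python 3.11.15, pandas 2.3.3, numpy 2.4.6 and matplotlib 3.10.9 were used.

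Named were all 10 members and, from each related list, genes at least 2-fold different in a sex, otherwise the 2 brightest, with cell type lists given by sums and counts, and the 5 genes most like the mean member profile. The planned mean-pixel signal was replaced by the median-pixel signal that the files give. The members and lists were chosen with earlier results of these data known. The scanner error multiple of 2 the count of separated pools and the recount of signs and absolute medians under each scaling were chosen after seeing the data.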

Additional observations from a re-analysis of the deposited data

Results flagged for a closer look

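Of the 10 members, 3 differed with CB-NP in opposite directions in the sexes, against 32.8% of 13933 genes. The female minus male value of that difference was -0.56 for Fos, -0.408 for Junb and -0.178 for Ier2, all on the log2 scale. With normexp the values were -0.09, 0.01 and -0.21, and Fos and Junb no longer differed in sign between the sexes. With the authors' scaling they were -0.53, -0.37 and -0.15, and Ier2 was above 0 in both. With 1 pool per group the difference between the sexes was not tested. The male values were 0.05, 0.01 and 0.15, each smaller than its scanner error of 0.25, 0.21 and 0.20, and the female values were -0.51, -0.40 and -0.02. Fos and Junb were both highest in the female control pool, which enters the female comparison only. Members with the same sign in both sexes could differ more in size. The female minus male value was -0.80 for Fosb, 0.53 for Egr2 and 0.43 for Zfp36, each larger in size than that of Junb.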

How the results depend on the processing

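No member was at least 2-fold different in any comparison or called by limma under any alternative run. The lowest adjusted p of a member in limma for CB-NP was 0.338 as reported and 0.103 to 0.705 elsewhere. Of 180 recomputed member differences, 174 stayed within the scanner error, and 6 moved beyond it, all with normexp: Fosb to 0.43 in males, Fos, Junb and Zfp36 to -0.10, -0.12 and 0.26 in females, and Fos and Junb to 0.23 and 0.11 between the controls. Normexp was run with an added offset of 50 units, which narrows the log2 differences of dim signals. How much of these moves came from the offset was not tested. Averaging all probes changed no member, since each has 1. Members with both CB-NP pools above both controls numbered 4 with median centring, where Fosb dropped out (16.5% of genes), and 6 with the authors' scaling, where Ier2 joined (33.5%). Normexp gave 2 below instead of 1, Junb beside Dusp1 (32.4% of genes). Opposite signs in the sexes were found for 1 (normexp) to 5 (median centring) members. Median centring moved the median of all genes by -0.11 in females and by 0.12 between the controls.

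The counts of all genes called by limma were unstable. The prior degrees of freedom differed too: 2.42 as reported, 7.44 with an intensity trend, and infinite with normexp and with median centring. An infinite prior gives every gene the same standard error. The part of the prior in the counts was not tested. For CB-NP, 2 higher and 10 lower as reported became 359 and 253 with normexp, 173 and 174 with median centring, 227 and 154 with an intensity trend, 0 and 3 with quantile normalization and with cyclic loess, 0 and 2 with the authors' scaling, 1 and 10 with all probes averaged, and 0 and 0 both without a filter and with all 4 arrays required (1363 and 2114 genes at an unadjusted p under 0.05). For sex, 1 and 3 became 38 and 39 with normexp, 97 and 84 with median centring, 7 and 9 with the trend, and 0 and 0 both without a filter and with all 4 arrays required (836 and 801 at an unadjusted p under 0.05).

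No paired analysis was possible because each group has 1 pool and the groups share fewer than 2 replicate numbers, and the limma model instead compared the pools within each sex by its sex term. Slide was not run as a block, since there was only 1. Signals near background (Zfp36, Fos, Fosb) limit how finely those genes can be compared.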

Other observations

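The male control pool was the lowest of the 4 for 5 of 10 members, and the female control pool was the highest for 4 of 10 (Fos, Junb, Ier2 and Dusp1), against 20.9% and 33.3% of genes. Rgs1, a regulator of G protein signalling induced in activated lymphocytes and named after its values were seen, was also highest in the female control, at a level of -1.52 beside -1.89 in the female CB-NP, -2.18 in the male control and -2.32 in the male CB-NP pool.

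The 2 probes of Elk1 gave mean processed signals of 283500 and 14.9 units for the same RefSeq accession. Their differences with CB-NP were -0.04 and -0.22 in males. In females the brighter probe gave 0.22, and the dimmer one was not well above background in the CB-NP pool. Which of them reads Elk1 is not settled by the files.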
